A study of Homo sapiens with 16 samples.

Results

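Serpins of clade B are the intracellular branch of the serpin family of protease inhibitors, and 9 of their genes that are known from epithelium were followed here: SERPINB1, SERPINB2, SERPINB3, SERPINB4, SERPINB5, SERPINB6, SERPINB7, SERPINB8 and SERPINB13. They were chosen by name. Every probe of the deposited table that carried one of these symbols was taken, which gave 11 probes among 24526 in all. Of these, 8 probes of 6 genes passed the filter on dim probes (a detection p-value under 0.05 on at least 3 arrays), and each of the 8 was detected on all 16 arrays. SERPINB3, SERPINB4 and SERPINB13 had 1 probe each and did not pass.

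The cells were SUM-225, a single established breast cancer line with amplified and over expressed HER2, grown, per the sample labels, in medium with serum, insulin and hydrocortisone. The study instead describes serum-free culture of this line, in a medium without insulin or EGF. Which of these held for the arrays cannot be told. All cultures belonged to the arm treated with 1 µM CP724,714, a small molecule that inhibits the HER2 kinase, and 1 culture was collected for each time point, at steps of 3 h up to 45 h. Each time point was measured on 1 Illumina bead array, so the error of each value below is the deviation of the 16 arrays from a smooth course. No untreated time course was analysed here, and time in culture cannot be told apart from the inhibitor.

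A serpin presents a flexible loop as bait. A protease that cuts the loop is trapped in a covalent complex while the serpin changes shape. Clade B members lack a classical secretion signal and act mainly inside the cell, where they restrain proteases that leak from granules and lysosomes. Several are abundant in stratified epithelium, and SERPINB5 (maspin), which does not trap proteases, was first described in mammary epithelium as a suppressor of tumor growth.

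The median signal of the arrays lay between 242 and 384, and between 57.5% and 61.5% of probes were detected. All 8 markers of luminal epithelium and of this line, including KRT18, KRT19 and ERBB2, were detected on every array. Among these 8, KRT8 (-0.68 log2 units over 45 h) and KRT18 (-0.74, with -0.07 for its second probe) fell and MUC1 (1.46) rose, and the probes of KRT19, ERBB2 and GRB7 reached the top of the scale. Of the markers of other cell types, 2 of 7 for fibroblasts, 4 of 6 for leukocytes and 3 of 3 for endothelium were detected on any array. VIM, COL3A1, DCN, LUM, PDGFRB and PTPRC were detected on none, and CD3E and CDH5 on 1 each. CD14, CD68, LYZ and PECAM1 were detected on all 16, VWF on 13 and COL1A1 and COL1A2 on 5 each. The summed signal of the leukocyte markers was 2842 to 3905 on the arrays from 0 to 21 h and 3106 to 5606 from 24 to 45 h, and that of the endothelial markers was 262 to 366 and 344 to 473. The fibroblast markers summed to 297 to 376 and 291 to 313. The part of these markers in the results was not tested. Levels also shifted between 4 runs of neighboring arrays, called sets here: the set from 0 to 9 h, the one from 12 to 21 h, and those of 24 to 33 h and 36 to 45 h. No label gives a batch for this pattern, which was noticed in the values. The linear trends of the member probes are therefore given within these sets as well.

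The first question was which of these genes the cells expressed. SERPINB1, SERPINB2, SERPINB5, SERPINB6, SERPINB7 and SERPINB8 were detected on all 16 arrays. SERPINB3 and SERPINB4, the squamous cell carcinoma antigens, were detected on none, with signals of 149 to 205 and 149 to 233 and lowest detection p-values of 0.399 and 0.261. SERPINB13 (headpin), an inhibitor of lysosomal cathepsins in keratinocytes, was detected only at 27 h, with a signal of 299 and a detection p-value of 0.0387, and its signal on the other arrays reached at most 234. The array at 27 h also had the highest median signal of the series. These 3 genes have values at background only, and no fold change is given for them.

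The other clade B genes on the array were SERPINB9, the inhibitor of granzyme B, and SERPINB10, SERPINB11 and SERPINB12. None of the 4 was detected on any array, and the lowest detection p-value among them was 0.0597, for SERPINB10. In the RefSeq annotation SERPINB1, SERPINB9 and SERPINB6 follow each other on chromosome 6, and 2 of these 3 genes were detected throughout. The other 10 form a cluster on chromosome 18 in the order SERPINB5, SERPINB12, SERPINB13, SERPINB4, SERPINB3, SERPINB11, SERPINB7, SERPINB2, SERPINB10 and SERPINB8, and 4 of the 10 were detected throughout. Along this cluster the 5 genes from SERPINB12 to SERPINB11, and SERPINB10, gave background signal on at least 15 arrays each, while the genes on either side were detected on all arrays. SERPINB3 and SERPINB4 are close paralogs, and the 250 bases before their annotated starts differ at 3 positions, an identity of 98.8%.

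**Figure D1:**
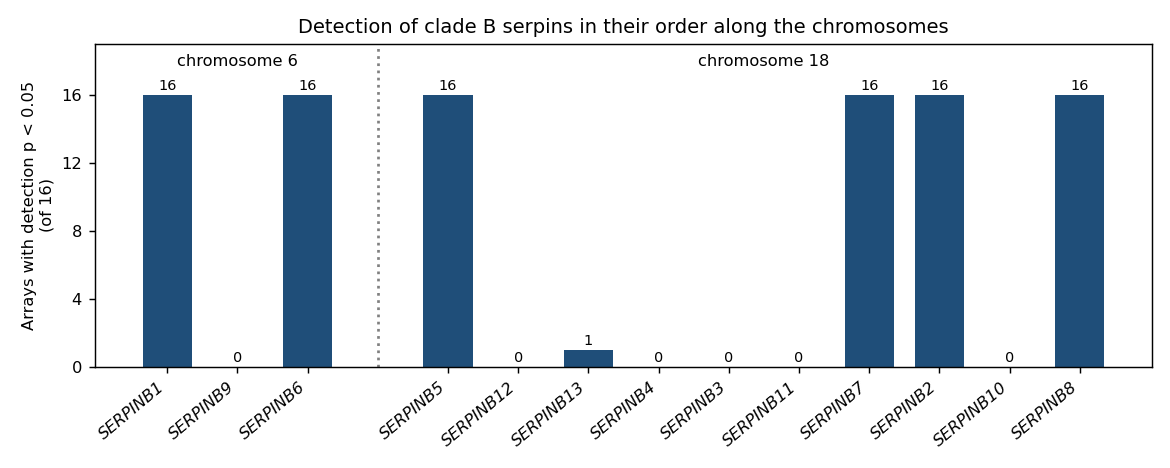
The bars give the number of arrays, of 16, on which each clade B serpin had a detection p-value under 0.05, with genes in their order along chromosome 6 (left) and chromosome 18 (right). SERPINB1, SERPINB6, SERPINB5, SERPINB7, SERPINB2 and SERPINB8 stand at 16, SERPINB13 at 1 and the other 6 genes at 0.

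Time dependence was then tested for the 8 probes that passed the filter, as part of a limma fit of a cubic course to all 16110 probes tested. In the F-test 6 of the 8 probes (75%), from 5 genes, depended on time at an adjusted p under 0.05, against 51.3% of all probes tested. A linear trend was found for 3 of the 8 (37.5%), against 47.7% of all. SERPINB1 and SERPINB2 rose and SERPINB5 fell, against 26.0% of all probes that rose and 21.7% that fell. For 3 of the 8 (37.5%) the course was curved, with second- and third-order terms past the threshold, against 19.3% of all. With 8 probes each one is worth 12.5 percentage points, and no more than a description of these probes is given. Without the 45 h array 3 of the 8 depended on time and 1 was curved, and without the 9 h array 6 were curved. The median linear change of the 8 was -0.01 log2 units over 45 h, against 0.05 for all probes, and the median of its size without sign was 0.11 against 0.37. In RNA of a whole culture, fewer expressing cells and less RNA per cell cannot be told apart.

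**Figure D2:**
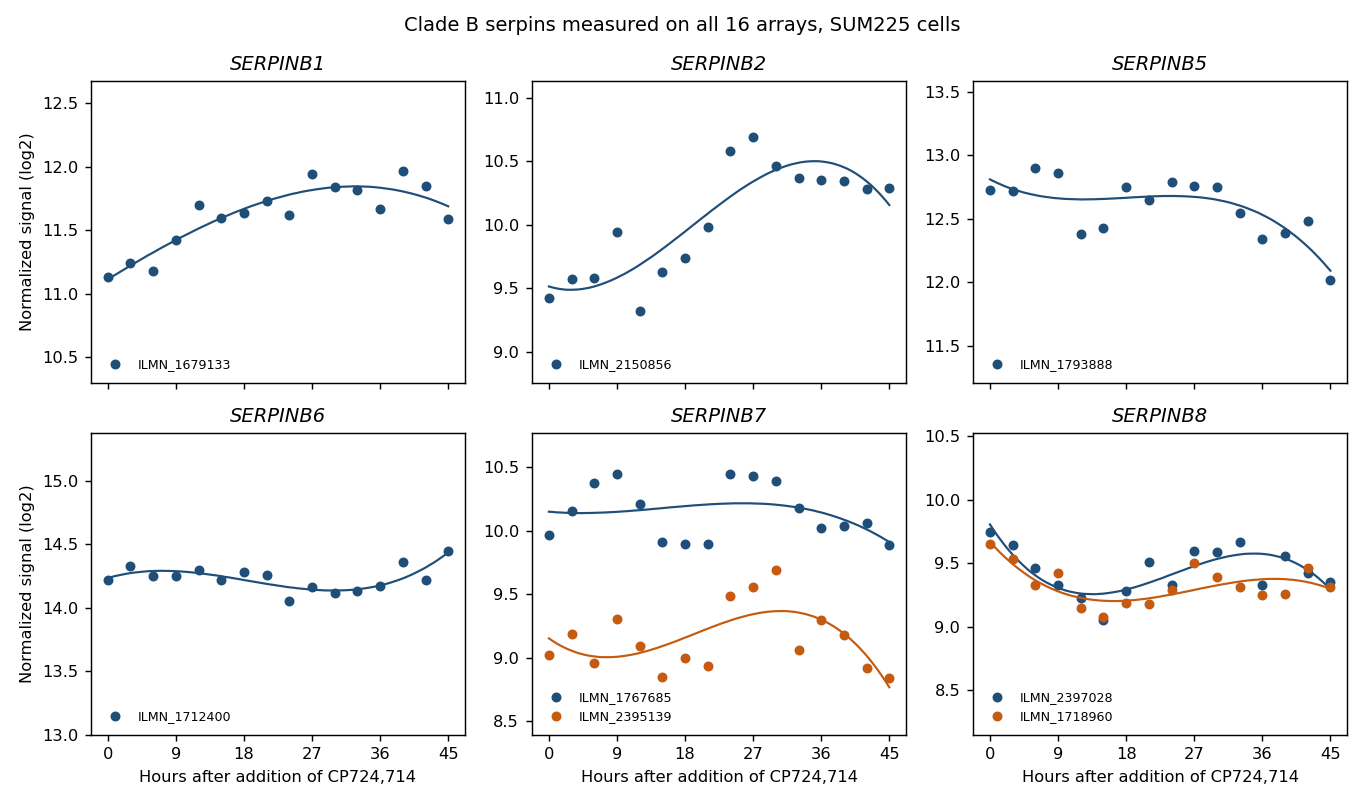
Normalized log2 signal (points, 1 array each) against hours after addition of CP724,714 for the 6 clade B serpins detected on all 16 arrays, with the fitted cubic course as a line and a second color for the second probe of SERPINB7 and SERPINB8. The vertical scale spans the same range in every panel: SERPINB2 moved from 9.42 at 0 h to 10.29 at 45 h, while SERPINB6 stayed between 14.05 and 14.45.

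SERPINB2 encodes plasminogen activator inhibitor type 2, which inhibits urokinase. Its single probe (ILMN_2150856) changed most of the 8. The normalized log2 values were 9.42, 9.57, 9.58 and 9.94 from 0 to 9 h and 9.32, 9.63, 9.74 and 9.98 from 12 to 21 h. They were 10.58, 10.69, 10.46 and 10.37 from 24 to 33 h and 10.35, 10.34, 10.28 and 10.29 from 36 to 45 h. All 8 arrays from 24 h on (10.28 to 10.69) thus lay above all 8 arrays up to 21 h (9.32 to 9.98). This held for 1 of the 8 member probes and for 3.71% of all probes tested, and the reverse, all later arrays below all earlier ones, for 0 member probes and 2.67% of all.

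The linear rise of SERPINB2 was 1.09 ± 0.17 (SE, 16 arrays) log2 units over 45 h, a fold of 2.13 (limma, adjusted p = 3.5e-05). The highest value was 2.42-fold that at 0 h, at 27 h, and the value at 45 h was 1.84-fold. The deposited signal, before any normalization, went from 667 at 6 h to 2764 at 27 h and was 1118 at 45 h. This span also holds the brightness of the arrays, whose median signal was lowest at 6 h (242) and highest at 27 h (384). The normalized log2 values at these hours were 9.58 and 10.69. Between the first and last array of a set the difference was 0.53 and 0.66 log2 units in the earlier pair of sets and -0.21 and -0.05 in the later pair. The widest step between neighboring arrays was -0.62, from 9 to 12 h. Within the sets the linear change was 0.98 ± 0.57 (adjusted p = 0.45). When a step from 21 to 24 h was added to the fit, it was 0.81 ± 0.23 (adjusted p = 0.0645), and the linear change was then -0.05 ± 0.35.

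SERPINB1 encodes the leukocyte elastase inhibitor, which inhibits neutrophil elastase, cathepsin G and proteinase 3. Its log2 values were 11.13, 11.24, 11.18 and 11.42 from 0 to 9 h, 11.70, 11.60, 11.64 and 11.73 from 12 to 21 h, 11.62, 11.94, 11.84 and 11.82 from 24 to 33 h, and 11.67, 11.97, 11.85 and 11.59 from 36 to 45 h. The 4 earliest arrays were the 4 lowest, and from 12 h on every value was at least 11.59. The linear rise was 0.63 ± 0.10 (SE, 16 arrays) log2 units, a fold of 1.55 (limma, adjusted p = 3.63e-05). The course was curved (adjusted p = 0.0278), with a value at 12 h 0.57 log2 units above that at 0 h, a maximum of 0.84 at 39 h and a lower value at 45 h than at 42 h.

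SERPINB1 and SERPINB2 both rose, but along different courses. At 12 h SERPINB1 had reached 11.70, while SERPINB2 was at its lowest value of 9.32. SERPINB1 gained a mean of 0.33 log2 units between the arrays up to 21 h and those from 24 h, SERPINB2 a mean of 0.77. The mean of SERPINB1 was 11.24 from 0 to 9 h and 11.67 from 12 to 21 h. For SERPINB2 the mean was 9.67 from 12 to 21 h and 10.52 from 24 to 33 h. Both changes lie where one set of arrays ends and the next begins, so different timing in the cells cannot be told apart from differences between sets. Pearson r between the 2 probes was 0.69 over the 16 arrays, which share their RNA and normalization. Within the sets the linear change of SERPINB1 was 0.40 ± 0.44 (adjusted p = 0.731). With the 45 h array left out the curvature of SERPINB1 was not past the threshold (limma, adjusted p = 0.175). Nor was it without the 27 h array (0.0559) or with array weights (0.0806). The curvature of SERPINB2 was not called in the cubic fit over all arrays (0.084). It was past the threshold under median scaling (0.0299), with array weights (0.0240) and without the 9 h array (0.0339).

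SERPINB5 fell. The log2 values of its probe were 12.73, 12.72, 12.90 and 12.86 from 0 to 9 h, 12.38, 12.43, 12.75 and 12.65 from 12 to 21 h, 12.79, 12.76, 12.75 and 12.55 from 24 to 33 h, and 12.34, 12.39, 12.48 and 12.02 from 36 to 45 h. The first 4 arrays were high, the arrays at 12 and 15 h were low, the level stood again at 12.75 or above at 18 h and from 24 to 30 h, and the last 4 arrays were low. The linear change was -0.46 ± 0.12 (SE, 16 arrays) log2 units, a fold of 0.725 (limma, adjusted p = 0.00398). At 45 h SERPINB5 was at 0.611 of its value at 0 h, the lowest point of the course.

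The call of SERPINB5 rested on the last array. Without the 45 h array the linear change was -0.32 ± 0.14 (adjusted p = 0.0616), and its time dependence was not past the threshold either (adjusted p = 0.172). Within the sets the linear change was 0.03 ± 0.48 (adjusted p = 0.987). Between the ends of a set SERPINB5 differed by 0.13 and 0.27 log2 units in the earlier pair of sets and by -0.24 and -0.33 in the later pair, so the direction within a set was not the same throughout.

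The 250 bases before the annotated starts of the 3 genes with a linear trend are shown because their values differed in direction or in course. They are printed 5′ to 3′ on the strand of the gene, from RefSeq promoter sequences of build GRCh38.p14. Capitals mark matches on either strand to TGANTCA, a loose form of the motif of AP-1 factors with any base at N. They also mark matches on either strand to GGGCGG, known as the GC box, and to TATAAA, known as the TATA box.
SERPINB2 (chr18:63887455-63887704, plus strand): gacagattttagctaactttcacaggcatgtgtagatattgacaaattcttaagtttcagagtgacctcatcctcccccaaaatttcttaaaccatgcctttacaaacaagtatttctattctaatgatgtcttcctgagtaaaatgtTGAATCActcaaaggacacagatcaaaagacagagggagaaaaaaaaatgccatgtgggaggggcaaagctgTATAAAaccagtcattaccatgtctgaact
SERPINB5 (chr18:63476708-63476957, plus strand): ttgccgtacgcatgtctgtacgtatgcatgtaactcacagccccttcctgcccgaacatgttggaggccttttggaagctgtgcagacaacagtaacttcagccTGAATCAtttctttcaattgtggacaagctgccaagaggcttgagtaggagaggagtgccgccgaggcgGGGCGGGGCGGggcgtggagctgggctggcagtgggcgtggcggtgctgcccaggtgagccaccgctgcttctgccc
SERPINB1 (chr6:2841864-2842113, minus strand): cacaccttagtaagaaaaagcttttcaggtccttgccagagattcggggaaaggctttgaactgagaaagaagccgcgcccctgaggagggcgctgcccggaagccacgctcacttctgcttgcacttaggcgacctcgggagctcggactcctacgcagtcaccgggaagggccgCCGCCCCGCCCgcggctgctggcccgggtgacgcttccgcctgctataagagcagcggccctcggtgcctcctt
SERPINB2 has 1 match to TGANTCA, which reads TGAATCA, 102 bases before the start, and 1 TATAAA, 30 bases before it. SERPINB5 has 1 match to TGANTCA, which also reads TGAATCA, 146 bases before the start, and 2 overlapping GC boxes. SERPINB1 has 2 GC boxes, which overlap and read CCGCCC on the printed strand, and no match to the other motifs. The GC content of the 3 windows was 37.2%, 60.0% and 63.6%, with a median of 58.0% over all windows. Of 35116 windows of this length in the annotation, TGANTCA was found in 6.57%, GGGCGG in 42.6% and TATAAA in 10.7%. All 9 genes were matched to the annotation, with 14 windows, since SERPINB6 and SERPINB7 have several starts. TGANTCA was present in 6 of the 14 windows, from SERPINB2, SERPINB5, SERPINB7, SERPINB8 and SERPINB13. Of these genes SERPINB5 fell and SERPINB2 rose over the whole series, SERPINB7 and SERPINB8 had no linear trend, and SERPINB13 was at background. The part of this motif in the courses was not tested.

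SERPINB7, also called megsin, is expressed in kidney mesangial cells and in epidermis, and was measured by a pair of probes. The brighter probe (ILMN_1767685) had its lowest log2 value at 45 h (9.89), a median of 10.11 and its highest at 9 h (10.45), and the dimmer (ILMN_2395139) its lowest at 45 h (8.84), a median of 9.07 and its highest at 30 h (9.69). The linear changes were -0.12 ± 0.16 (95% confidence interval -0.46 to 0.22, adjusted p = 0.57) and 0.06 ± 0.17 (-0.30 to 0.41, adjusted p = 0.812). Neither probe depended on time in the cubic fit (adjusted p = 0.566 and 0.0833), but the dimmer one did under median scaling (0.0207), with array weights (0.0293) and without the array at 9 h (0.0371) or 33 h (0.0393). Both probes nevertheless lay 0.55 log2 units higher at 24 h than at 21 h, the widest step of the brighter probe, and were lowest at the end of the series.

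When a step from 21 to 24 h was added to the cubic course, it came to 0.88 ± 0.19 log2 units for the brighter SERPINB7 probe (limma, adjusted p = 0.0157), against 2.61% of all probes with such a call, and 0.75 ± 0.22 for the dimmer (adjusted p = 0.0829). In this fit the linear term was -1.37 ± 0.29 (adjusted p = 0.00203) for the brighter probe and -1.01 ± 0.34 (adjusted p = 0.0466) for the dimmer. It is 1 term for the whole series beside the curved terms and the step, and not a slope on each side. From 0 to 9 h the brighter probe rose by 0.48 log2 units. The step lies where one set of arrays ends and the next begins, and a change in the cells at this time cannot be told apart from a difference between those sets. SERPINB7 and SERPINB2, which are neighbors on chromosome 18, both had their highest mean over a set from 24 to 33 h. It was 10.36 ± 0.12 and 9.45 ± 0.27 (SD, n = 4 arrays of different times) for the SERPINB7 probes and 10.52 ± 0.14 for SERPINB2. This was not particular to the neighbors, since SERPINB1 on chromosome 6 also had its highest mean there (11.81 ± 0.13). Pearson r of SERPINB2 over the 16 arrays was 0.29 and 0.54 with the SERPINB7 probes and 0.69 with SERPINB1. From 36 to 45 h SERPINB2 had a mean of 10.32, while the SERPINB7 probes were at 9.89 to 10.06 and 8.84 to 9.30.

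SERPINB8, an inhibitor of the proprotein convertase furin, was also measured by a pair of probes. Both were highest at 0 h (9.75 and 9.65) and lowest at 15 h (9.05 and 9.08), and at 45 h they stood at 9.35 and 9.31. The brighter probe (ILMN_2397028) depended on time (adjusted p = 0.0165) and was curved (adjusted p = 0.0215, or 0.0574 without the 0 h array and 0.0580 without the 15 h array), with no linear trend, -0.03 ± 0.12 (95% confidence interval -0.27 to 0.22, adjusted p = 0.865). The other probe (ILMN_1718960) was only just past the threshold for time dependence (adjusted p = 0.0497). This call was lost in 12 of the 16 fits that left out 1 array (all but those without 9, 27, 36 or 39 h), under median scaling (0.143), with no filter (0.0802) and with array weights (0.0740). Its curvature did not pass the threshold (adjusted p = 0.0636), and its linear change was -0.10 ± 0.11. SERPINB8 was thus lower by 0.70 and 0.57 log2 units at 15 h than at 0 h, a fold of 1.63 and 1.48, and values after 15 h lay between these extremes.

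The furin gene itself, FURIN, had a signal of at most 482 and a linear change of 0.22 ± 0.24 (adjusted p = 0.468). Probes of one gene were compared by the Pearson correlation of their log2 difference (brighter minus dimmer) with hours. For SERPINB7 r was -0.32 and Spearman rho -0.29 (n = 16, two-sided permutation tests with 100000 resamples, p = 0.23 and 0.276; adjusted over the 2 pairs 0.461 and 0.552), and leaving out the arrays at 0 and 45 h gave r = -0.47 (permutation p = 0.0856, n = 14). For SERPINB8 r was 0.18 and rho 0.02 (n = 16, permutation p = 0.496 and 0.935; adjusted p = 0.496 and 0.935), and leaving out those arrays gave r = 0.28 (permutation p = 0.321, n = 14). No trend in the difference between the probes was found for either gene. The correlation between the probes themselves was 0.73 in each gene. The SERPINB7 probes lay 0.70 log2 units apart at 30 h and 1.43 apart at 6 h, so they did not trace one course exactly.

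SERPINB6, which inhibits cathepsin G and trypsin-like proteases, had the smallest range of the 8. Its log2 values had a lowest value of 14.05 at 24 h, a median of 14.23 and a highest of 14.45 at 45 h, a range of 1.32-fold, where the median range of the 8 probes was 0.77 log2 units and that of all probes tested 0.98. The linear change was 0.01 ± 0.06 log2 units (95% confidence interval -0.13 to 0.14, adjusted p = 0.954). SERPINB6 still depended on time (adjusted p = 0.0229) and was curved (adjusted p = 0.0279), being lowest from 24 to 33 h, with a mean of 14.11 against 14.26 in each of the sets before. Without the 45 h array neither was past the threshold (adjusted p = 0.169 and 0.253), nor without the 30 h array (0.0505 and 0.0566), and its curvature was also lost without the 24 h (0.0511) or 33 h (0.0523) array. Both calls were lost under cyclic loess normalization (limma, adjusted p = 0.0515 and 0.0600) and with array weights (0.0709 and 0.0894). The curvature alone was lost under median scaling (0.0553) and with no filter (0.0510). Its signal reached 37.0% of the brightest on its array, so the top of the scale did not limit it.

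**Figure D3:**
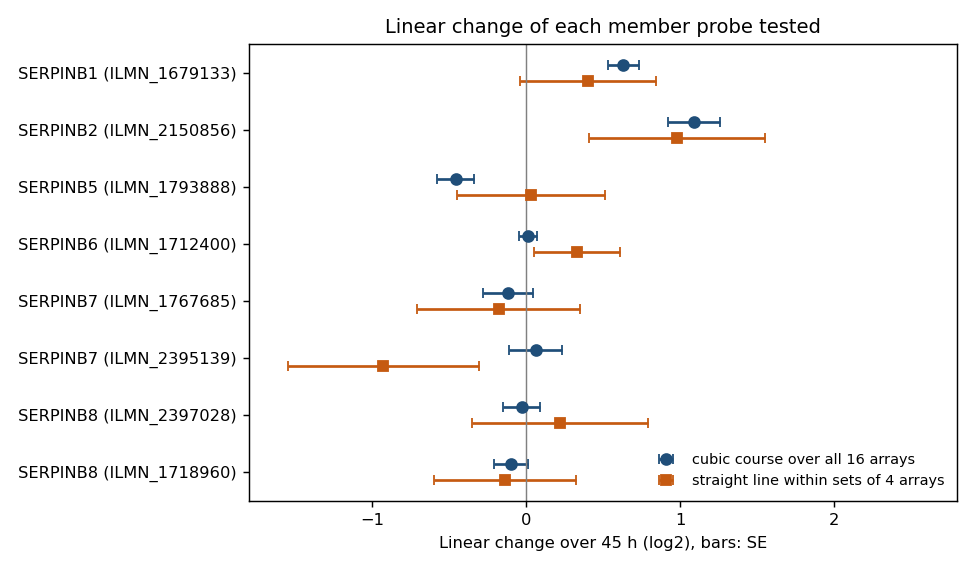
Linear change over 45 h in log2 units for each of the 8 member probes tested, from the cubic course over all 16 arrays (circles) and from a straight line within the sets of 4 arrays (squares), with bars for the SE. SERPINB2 lies at 1.09 and 0.98, SERPINB1 at 0.63 and 0.40, and SERPINB5 at -0.46 and 0.03; the bars within sets are wider for every probe.

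Within the sets of 4 arrays none of the 8 probes had a linear trend (limma, 0 at an adjusted p under 0.05 and 0 at an unadjusted p under 0.05), and 0.900% of all probes tested had one. The SE was between 0.28 and 0.62 log2 units there, against 0.06 to 0.17 over all arrays. Among the members, the lowest correlations over the 16 arrays were those of SERPINB6 with the SERPINB7 probes (-0.51 and -0.58) and with SERPINB5 (-0.50), and the highest between probes of different genes was that of SERPINB1 with SERPINB2.

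Among the probes whose course was most like that of SERPINB2 over the 16 arrays were GLUD1, glutamate dehydrogenase (Pearson r = 0.95), and CLIC3, an intracellular chloride channel protein (0.95). They rose linearly by 0.80 ± 0.12 and 1.02 ± 0.21 log2 units, and 412 probes in all had an r above 0.8 with SERPINB2. For SERPINB5 the closest were LOC143543 (0.89), PPP1R1B (0.89) and the actin gene ACTB (0.88), with linear changes of -0.60 ± 0.17, -0.72 ± 0.22 and -0.28 ± 0.06, and 60 probes were above 0.8. These probes were selected for their likeness among all that were tested, and the correlations are a description.

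The proteases that clade B serpins inhibit or act beside were taken as a list of 20 genes, of which 14 were tested. A linear rise was found for 5 and a fall for 2, against 26.0% and 21.7% of all probes, and the median linear change was 0.21 log2 units. The urokinase gene PLAU, the target of SERPINB2, changed by 0.09 ± 0.18 (adjusted p = 0.726), while PLAUR, the urokinase receptor, fell from 11.46 at 0 h to 9.79 at 45 h, a linear change of -1.39 ± 0.09 (adjusted p = 8.21e-10), and also fell within the sets (-1.86, adjusted p = 0.0353). The cysteine cathepsins CTSV (1.30 ± 0.10), CTSK (0.77 ± 0.18) and CTSL (0.60 ± 0.09) rose, whereas SERPINB3 and SERPINB13, clade B inhibitors of such cathepsins, were at background. The kallikreins KLK7 (1.08 ± 0.07) and KLK8 (1.04 ± 0.09) rose. CASP1 fell (-0.59 ± 0.18, adjusted p = 0.0115). The trends of CTSV, CTSK, CTSL, KLK7, KLK8 and CASP1 were not past the threshold within the sets (lowest adjusted p in limma 0.0606, for KLK7). No linear trend was called for CTSH (-0.04 ± 0.11), ST14 (0.23 ± 0.12), CASP8 (0.20 ± 0.16) or PRTN3 (-0.26 ± 0.28). The KLK5 probe taken by the rule was at the top of the scale, with log2 values of 16.07 to 16.14, so its change could not be read, and another KLK5 probe rose (0.76, adjusted p = 2.27e-06 in limma). CTSG, ELANE and GZMB, the granule proteases inhibited by SERPINB1, SERPINB6 and SERPINB9, were detected on no array, as were CTSS and PLAT, and PRTN3 was detected on 3.

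**Figure D4:**
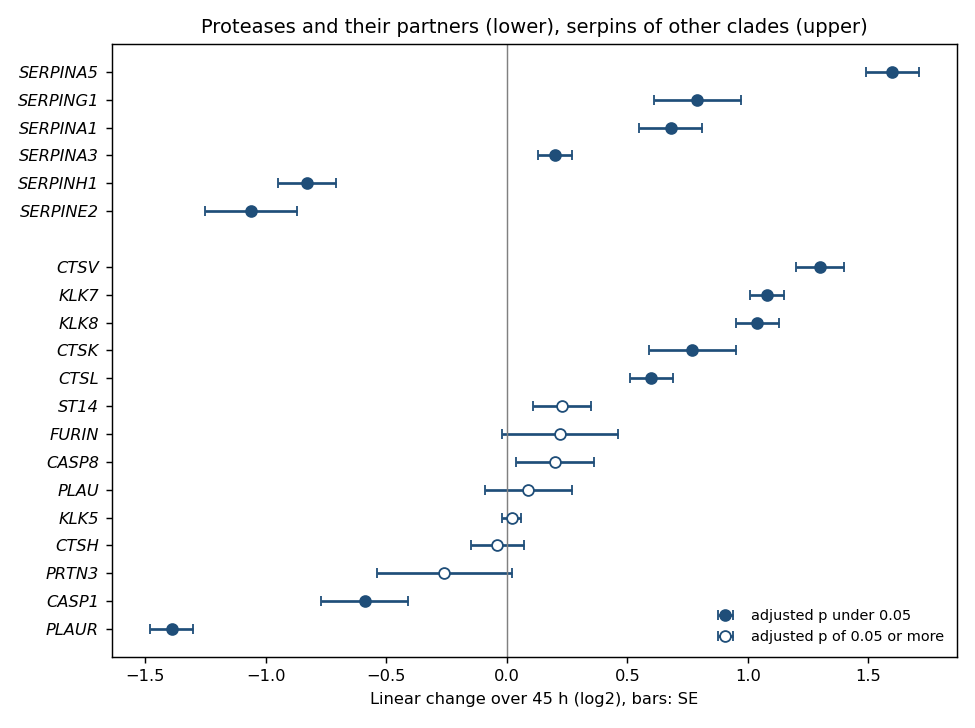
Linear change over 45 h in log2 units, with SE bars, for the tested proteases and partners of clade B serpins (lower group) and the tested serpins of other clades (upper group), 1 probe per gene; filled points passed an adjusted p of 0.05, and the KLK5 probe was at the top of the scale. PLAUR lies lowest at -1.39 and SERPINA5 highest at 1.60.

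Of 13 serpins of other clades, 6 were tested, and all 6 had a linear trend, against 47.7% of all probes. SERPINA5, the protein C inhibitor, rose most (1.60 ± 0.11, adjusted p = 7.8e-10), followed by SERPING1 (0.79 ± 0.18, with -0.09 for its second probe), SERPINA1 (0.68 ± 0.13) and SERPINA3 (0.20 ± 0.07, adjusted p = 0.028). SERPINE2 (-1.06 ± 0.19) and the collagen chaperone SERPINH1 (-0.83 ± 0.12) fell. None of the 6 trends was past the threshold within the sets.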

How the data were processed

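Total RNA of SUM-225 cultures, 1 per time point, was labelled with biotin and hybridised to Illumina bead arrays. The deposited values are a signal intensity per probe and array, to which the authors applied neither background correction nor normalization, and a deposited detection p-value against negative control beads. The study's methods describe quantile normalization, a later step. The scanning software and genome build were not given in the sources used here, and gene symbols are those of the table.

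Intensities were corrected with normexp in limma 3.58.1 (R 4.3.3), with negative controls inferred from the detection p-values and an offset of 16, then quantile normalized and log2 transformed (neqc). An offset pulls folds of dim signals towards 1. A cubic course in hours was fitted (lmFit, eBayes, intensity trend) to probes detected at p under 0.05 on 3 or more arrays. Time dependence was the F-test of its 3 coefficients, the linear change was the first-order coefficient scaled to 45 h, and a curved course was one with the second- and third-order coefficients past the threshold. p-values were two-sided and Benjamini-Hochberg adjusted over 16110 probes at a threshold of 0.05. The fit within sets used a straight line and a level per set. Permutation tests used NumPy 2.4.6. Fits and permutation tests were checked on simulated data.

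The members, gene lists and tests were chosen with earlier results of these data known. Text names every member probe, all other clade B serpins and, by rule, proteases and, of further lists, the genes past the threshold; a few others were added after their values were seen. A list gene with several probes is represented by the one with the highest mean. F2, on the protease list, had no probe in the table. Some genes that the rules select are not reported here. The 3 probes most like a member were taken by Pearson r. Promoters and gene order are from RefSeq (GRCh38.p14). Alternatives were the background, offset, normalization and filter settings, array weights, a straight line alone, a step between 21 and 24 h, the sets, and each array left out. The number of arrays limits the precision. Figures were drawn with matplotlib 3.10.9.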

Additional observations from a re-analysis of the deposited data

How the results depend on the processing

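Of 322 values recomputed under the alternatives, 293 had the reported sign and call or, for counts, moved by a factor of at most 1.5. A count of 2 in place of 3 is within that limit. The rises of SERPINB1 and SERPINB2 were past the threshold with each array left out (0.56 to 0.78 and 1.01 to 1.21 log2 units) and under every background, normalization, offset, filter and weight setting run. Leaving out 1 array gave 3 to 7 time-dependent member probes, 2 to 3 with a linear trend and 1 to 6 that were curved. The 45 h array gave the lowest of each, and the 9 h array gave the highest of the last. With the set as a factor 0 of the 8 probes had a linear trend (0 at an unadjusted p under 0.05). With 3 steps beside the cubic, added after the data were seen, 0 were time-dependent in limma (4 at an unadjusted p under 0.05). The curved terms alone passed there for the brighter probes of SERPINB7 (adjusted p = 0.0421) and SERPINB8 (0.0426) and for no other member probe. With a step between 21 and 24 h 1 was curved, against 3. In the F-test of the 3 terms beside that step both SERPINB7 probes depended on time (limma, adjusted p = 0.00402 for the brighter and 0.0130 for the dimmer). SERPINB2 did not (0.194), and the calls of the other probes were unchanged.

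Changes of sign were found for the following linear changes. SERPINB2 was -0.05 with the step and SERPINB5 was 0.03 with the sets. SERPINB6 was -0.10 (median scaling), -0.05 (cyclic loess) and -0.06 (array weights), and -0.09 to 0.04 with an array left out. The dimmer SERPINB7 probe was -0.04 (cyclic loess), -0.06 (array weights), -0.93 (sets) and -1.01 (step), and -0.0079 to 0.20 with an array left out. The brighter SERPINB8 probe was 0.22 (sets) and -0.08 to 0.10 with an array left out, and the other -0.17 to 0.01. The cause was not tested. SERPINB5 was -0.81 with the step (adjusted p = 0.0678). The correlations of the probe differences with hours kept their sign under all settings run. No paired analysis was possible because the time points have a single array each. Signals near background limit SERPINB3, SERPINB4 and SERPINB13.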

Other observations

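Genes of the cornified envelope and of squamous epithelium, the setting in which several clade B serpins are abundant, were taken as a list of 15, of which 13 were tested. A linear rise was found for 4 and a fall for 1, against 26.0% and 21.7% of all probes, and the median linear change was 0.35 log2 units. KRT4 (2.0 ± 0.21), CNFN, the cornifelin gene (1.44 ± 0.12), CSTA, a cysteine protease inhibitor (1.14 ± 0.15), and EVPL, envoplakin (0.37 ± 0.10), rose, and TGM1, a transglutaminase that crosslinks the envelope, fell (-0.90 ± 0.22, adjusted p = 0.00267). CNFN also rose within the sets of 4 arrays (2.05, adjusted p = 0.0326). The trends of KRT4 (0.14 within the sets, adjusted p = 0.942 in limma), CSTA, EVPL and TGM1 were not past the threshold there. LOR and FLG, the late markers of epidermis, were detected on no array.

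Of 10 regulators of squamous and stress genes, 9 were tested. A linear rise was found for 5 and a fall for 1, against 26.0% and 21.7% of all probes, and no linear trend was called for 3. ELF3, an epithelial ETS factor, rose most (1.85 ± 0.13, adjusted p = 1.54e-09). KLF5 (1.10 ± 0.13), KLF4 (0.53 ± 0.13), GRHL3 (0.52 ± 0.16) and GRHL1 (0.48 ± 0.18) rose as well. Another probe of GRHL3 (0.09) and of GRHL1 (0.39) did not pass the threshold. None of the 5 rises was past the threshold within the sets of 4 arrays. TP63, under its older symbol TP73L, was detected on no array.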
